A study of Homo sapiens with 4 samples.

Results

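The genes described here encode the proteins of the cytosolic ribosome. They were taken as the protein coding rows whose symbol is RPL or RPS followed by a number (with an optional A, X or L suffix), together with RPLP0, RPLP1, RPLP2 and RPSA. The rule found 84 genes among the 61860 rows of the count table, after 2 Y-linked copies were left out. Of these, 43 encode proteins of the large subunit, 31 proteins of the small subunit and 3 proteins of the P stalk, and 7 are paralogs with an L suffix. They lie on 21 chromosomes. FAU and RPL36AL, which also encode ribosomal proteins, are not matched by the rule and are given separately.

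RNA-seq was carried out on total RNA of HT1376, an established human bladder cancer cell line grown in serum-containing MEM. The treated group (EV, n = 2) received 1 nM enfortumab vedotin for 48 h, and the control group (WFI, n = 2) received the control labelled WFI for 48 h. Enfortumab vedotin is an antibody against nectin-4 that carries monomethyl auristatin E, a drug that disrupts microtubules. Whether the 2 replicates of a group came from separate cultures is not given in the labels. The p-values therefore describe only how far these 4 libraries scatter, and that scatter may be technical.

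A ribosome holds a single copy of nearly every ribosomal protein, and the cell makes these proteins in matched amounts, joining them to ribosomal RNA in the nucleolus. Their messengers are among the most abundant in growing cells. In vertebrates most of them begin with a C followed by an unbroken run of C and T (C and U in the RNA), the 5′ terminal oligopyrimidine or TOP motif, through which mTOR signalling and the RNA-binding protein LARP1 control their translation and stability. The paralogs with an L suffix encode close relatives that can take the place of a standard protein in some tissues or tumours.

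The sequence around the transcription start is shown for members with the largest and the smallest rises, and for paralogs beside their standard partners, so that the letters at their starts can be read beside the counts. No start window was held for RPL3L or RPL39L. Each line gives 40 bases before the start and 15 bases from the start onward, 5′ to 3′ on the strand of the gene, from RefSeq on GRCh38.p14. Capitals mark the longest run of C and T that begins with C and lies between 10 bases before and 20 bases after the start, where it has at least 5 bases. RPLP1 (chr15:69452778-69452832, plus strand), RPLP0 (chr12:120201097-120201151, minus strand) and RPS12 (chr6:132814529-132814583, plus strand) were among the members that rose most.
RPLP1: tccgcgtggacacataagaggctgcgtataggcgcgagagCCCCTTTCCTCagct
RPLP0: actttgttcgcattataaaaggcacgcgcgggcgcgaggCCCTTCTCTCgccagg
RPS12: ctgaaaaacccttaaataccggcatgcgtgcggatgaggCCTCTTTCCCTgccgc
RPL26 (chr17:8383179-8383233, minus strand) had the smallest rise, and its paralog RPL26L1 (chr5:172958689-172958743, plus strand, the upstream of 2 listed starts) has no such run.
RPL26: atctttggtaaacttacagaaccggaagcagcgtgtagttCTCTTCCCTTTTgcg
RPL26L1: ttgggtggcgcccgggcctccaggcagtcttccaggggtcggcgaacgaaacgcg
RPL22 (chr1:6199581-6199635, minus strand) and its paralog RPL22L1 (chr3:170870181-170870235, minus strand) both have a run.
RPL22: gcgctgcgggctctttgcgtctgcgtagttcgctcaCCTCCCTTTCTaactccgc
RPL22L1: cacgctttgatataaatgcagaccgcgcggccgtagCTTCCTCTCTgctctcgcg
RPS27 (chr1:153990722-153990776, plus strand) has a run, and its paralog RPS27L (chr15:63157463-63157517, minus strand) does not.
RPS27: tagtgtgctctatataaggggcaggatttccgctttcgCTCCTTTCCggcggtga
RPS27L: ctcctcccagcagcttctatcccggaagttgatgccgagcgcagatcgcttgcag
RPL7L1 (chr6:42879576-42879630, plus strand), the paralog that fell, has none either.
RPL7L1: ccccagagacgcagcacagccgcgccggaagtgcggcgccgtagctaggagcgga

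RefSeq start windows were held for 62 of the 77 canonical members (those without an L suffix) and for 5 of the 7 paralogs. The longest run had a median of 11 bases in the canonical members and 4 bases in all 27305 genes of the table. A run of 7 bases or more stood in 54 of 62 canonical members (87.1%), against 17.9% of all genes, and in 1 of 5 paralogs, which was RPL22L1. Pyrimidine motifs were searched on both strands of the same 30 bases. CTCTTT stood in 24.2% of canonical members and 2.69% of all genes. For the motif CTTTCC these shares were 30.6% and 3.30%. The third, CTTTTC, which can overlap the other two, stood in 17.7% and 2.53%. CCGGAAG, the core bound by ETS factors such as GABPA, was searched on both strands of the whole 300-base window and stood in 35.5% of canonical members and 12.2% of all genes. A match is a description of the letters and does not show a site in use. Fold changes did not follow the run outside the members. The 2349 other tested genes with a run of 7 or more stood at a median of -0.04 on the log2 scale, with 33.7% called higher in EV, and the 9437 with a shorter run at 0.01, with 34.7%. Among canonical members the 8 with a shorter run all rose, with a median of 1.06, beside 1.09 for the 54 with a longer one.

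Libraries held 19368791 to 20727175 counts. Of 17 bladder urothelial markers 9 passed the filter, 8 higher and 1 lower in EV. For all genes tested the shares were 34.5% higher and 31.5% lower. KRT5, TP63, UPK1A and EPCAM passed the filter only through their EV counts, and NECTIN4, the 1 called lower, only through its WFI counts. Their calls therefore add no separate support for a difference. KRT7 averaged 750.5 CPM (counts scaled to library size with TMM factors) in EV and 436 CPM in WFI. KRT20 had 0 counts in every library, and CDH1 had 9 and 7 counts in EV against 0 and 1 in WFI. NECTIN4, the antigen of the antibody, had 9 and 6 counts in EV against 28 and 29 in WFI. Of 5 mesenchymal markers 1 was higher and 3 were lower in EV, and their sum was 7541 and 7443 CPM in EV against 12110 and 11940 CPM in WFI. FN1 averaged 5298 CPM in EV and 10010 CPM in WFI, and VIM 1959 CPM in EV and 1724 CPM in WFI. In both WFI libraries KRT5, KRT14 and TP63 had 0 counts, while KRT5 had 97 and 134 counts in EV. EPCAM had 3 and 6 counts in WFI and GATA3 16 and 19, while PPARG and FOXA1 averaged 36.2 and 21.6 CPM there. The labelled cell type was thus only in part borne out by its markers. The 5 leukocyte markers summed to 35.8 and 35.5 CPM in EV against 0.291 and 0.287 CPM in WFI, nearly all from ITGAM and CD79A, with PTPRC at 4 and 9 counts in EV against 1 and 3 in WFI. The part of these markers in the results below was not tested.

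Nearly all ribosomal protein genes rose in EV. Of the 82 members that passed the count filter, edgeR's quasi-likelihood test called 75 higher and 2 lower at an adjusted p below 0.05, and 5 did not pass. The 2 called lower were RPL7L1, a paralog, and RPS18, a row with few counts that rests on 1 library. Among all 17465 genes tested, 34.5% were called higher and 31.5% lower, or 66% in either direction. The median log2 fold change was 1.09 over the members (2.12-fold, higher in EV) and 0.02 over all genes tested. Both EV samples lay above both WFI samples in 76 of the 82 tested members, against 42.1% of all genes tested, and below them in 1, against 40.7%. A rise of at least 1 on the log2 scale was called in 54 members, against 17.5% of all genes. Of the 2 members that did not pass the count filter, RPL10L had 0 counts in every library.

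The members took 7.09% and 6.82% of all counts in the EV libraries, against 3.49% and 3.59% in the WFI libraries, a ratio of 1.96. These are shares: the table holds no measure of RNA per cell, and a rise of these messengers and a loss of other RNA cannot be told apart. In bulk samples fewer cells of a kind and less RNA per cell cannot be told apart either.

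**Figure D1:**
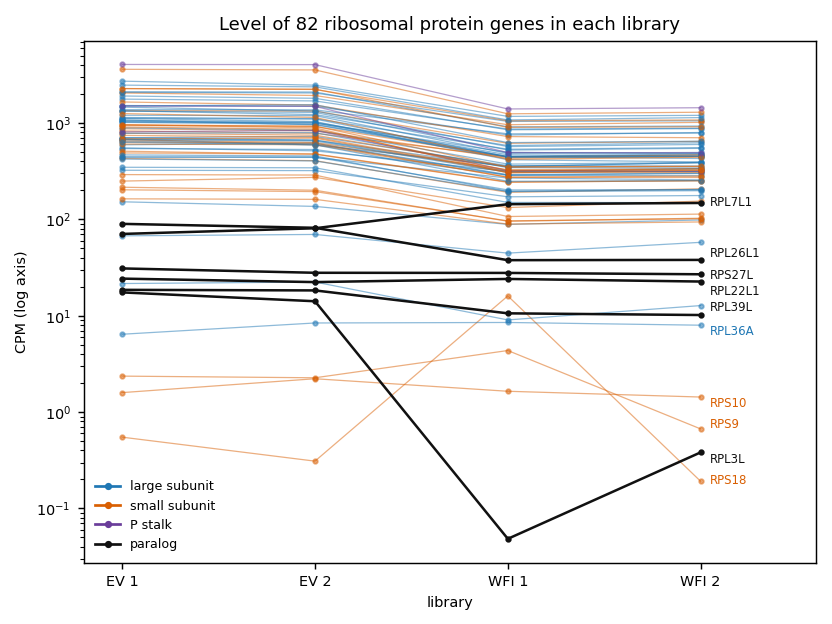
Level of each of the 82 tested members in the 4 libraries, in CPM on a log axis, with the EV libraries at left and the WFI libraries at right and a line for each gene. Most lines run downward from EV to WFI in parallel, while RPL7L1 runs upward and RPL22L1 and RPS27L run nearly level.

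Of the 77 canonical members, 71 had a mean count of 1000 or more, a division chosen after the values were seen. All 71 rose in EV, by 0.42 to 1.60 on the log2 scale, with a median of 1.11 (2.15-fold). Their quartiles were 0.99 and 1.21, and the SD over the genes was 0.22, beside a median SE of 0.04 for a single gene. Replicates of these genes differed by a median of 0.05 on the log2 scale in EV and in WFI. A rise of 1.25 or more was seen in 17 of the 71, one of 1 to 1.25 in 34, one of 0.75 to 1 in 16 and one below 0.75 in 4.

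**Figure D2:**
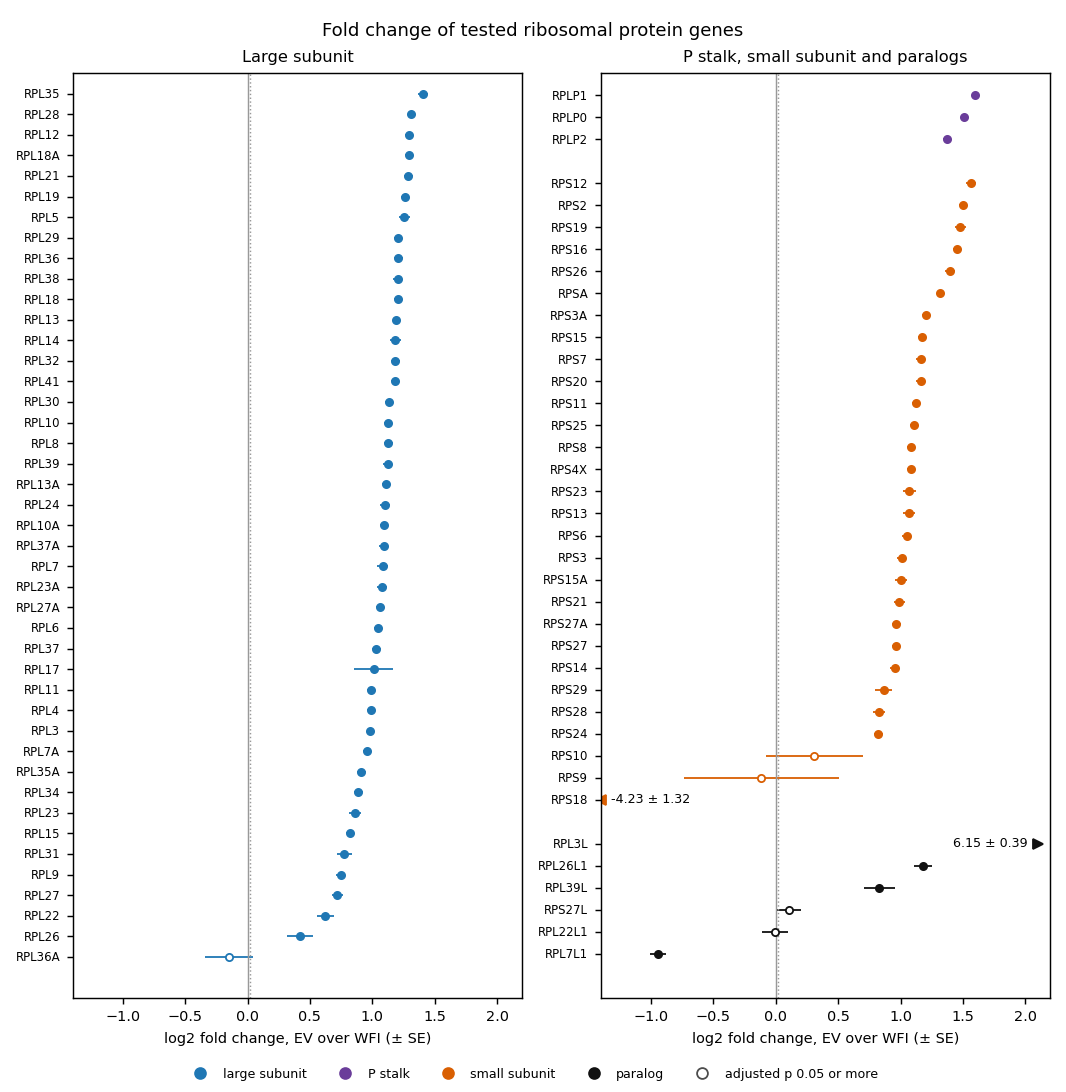
Log2 fold change (EV over WFI) of 81 tested members with its standard error, grouped by subunit. The 3 P stalk genes sit between 1.37 and 1.60, and RPL7L1 lies below 0. Open points did not pass the test, and arrows mark RPS18 and RPL3L, whose values lie outside the axis.

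The 3 P stalk genes were among the members that rose most. The P stalk is the flexible arm of the large subunit that recruits elongation factors and, in yeast and human cells, helps activate the kinase GCN2. RPLP1 (ENSG00000137818) had 1501 and 1490 CPM in EV, against 494 and 493 CPM in WFI. Its log2 fold change was 1.60 (SE 0.03, edgeR adjusted p = 2.36e-12), the highest of the 82 apart from RPL3L. RPLP0 (ENSG00000089157), the scaffold of the stalk, had 4059 and 4044 CPM in EV, against 1401 and 1443 CPM in WFI, and rose by 1.51 (SE 0.02, edgeR adjusted p = 1.52e-12). RPLP2, the partner of RPLP1, had 810 and 838 CPM in EV, against 321 and 315 CPM in WFI, a log2 fold change of 1.37. The EV and WFI samples were far apart for all 3. Together the stalk genes made up 8.44% and 8.73% of member counts in EV, against 6.74% and 6.66% in WFI, while the other large subunit genes made up 55.9% and 55.7% in EV, against 58.2% and 58.1% in WFI.

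Among the large subunit genes with a mean count of 1000 or more, all 41 rose, with a median log2 fold change of 1.10. RPL35, which sits by the exit of the peptide tunnel, had 1115 and 1037 CPM in EV against 416 and 396 CPM in WFI, and its log2 fold change of 1.41 was the largest in the group. RPL8, part of the ribosomal core near the peptidyl transferase centre, rose by 1.13, and RPL10, which joins the subunit late in its assembly, by 1.13. RPL3, which reaches into that centre, had 2086 and 2053 CPM in EV against 1040 and 1055 CPM in WFI (log2 fold change 0.98). RPL5 and RPL11 form with 5S ribosomal RNA the particle that can bind and inhibit MDM2. RPL5 had 1463 and 1334 CPM in EV against 570 and 600 CPM in WFI, a rise of 1.26, and RPL11 had 703 and 727 CPM in EV against 361 and 358 CPM in WFI, a rise of 0.99. The rise of RPL5 was the larger, and the difference between these genes was not tested.

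The 5 smallest rises among the 71 genes were all in the large subunit. RPL26, a protein near the tunnel exit, had 67.6 and 69.8 CPM in EV against 44.7 and 57.8 CPM in WFI. The groups did not overlap, and the log2 fold change was 0.42 (SE 0.10, edgeR adjusted p = 0.0039), but it was 0.22 (adjusted p = 0.1033) without WFI replicate 1. RPL22, whose loss mice survive with defects in T cells, had 152 and 137 CPM in EV against 88.9 and 98.7 CPM in WFI, a rise of 0.62. RPL27 rose by 0.72, RPL9 by 0.75 and RPL31 by 0.78.

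In the small subunit all 27 genes with a mean count of 1000 or more rose, with a median log2 fold change of 1.08. RPS12 had 959 and 894 CPM in EV against 304 and 323 CPM in WFI, a rise of 1.56. RPS2, which lines the channel where the messenger enters, had 3615 and 3562 CPM in EV against 1248 and 1296 CPM in WFI, a rise of 1.50. RPS19, the gene most often mutated in Diamond-Blackfan anaemia, had 1255 and 1145 CPM in EV against 420 and 442 CPM in WFI, a rise of 1.48. RPS16 rose by 1.45, RPS26 by 1.39 and RPSA, which also serves as a laminin receptor, by 1.32. RPS4X, the X-linked gene whose Y-linked copies were left out, had 2280 and 2233 CPM in EV against 1057 and 1077 CPM in WFI, a rise of 1.08. RPS6, the substrate of the S6 kinases downstream of mTOR, had 965 and 922 CPM in EV against 444 and 468 CPM in WFI, a rise of 1.05, close to the group's median. The smallest rise of the 27, in RPS24, was 0.82.

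Levels kept nearly the same order in EV and WFI. Per kilobase of coding sequence, the 71 genes spanned 158 (RPL26) to 13910 (RPL41, the shortest coding sequence) CPM in EV. On the log2 scale these EV and WFI levels correlated at r = 0.97 (Spearman rho = 0.96, n = 71 genes from the same libraries). Both levels are divided by the same coding length, which can raise the correlation. In CPM the highest was RPLP0 in both groups and the lowest RPL26. The rise did not track coding length within the members (r = 0.11, Spearman rho = 0.11, n = 71). It went weakly with the log2 WFI level per kilobase (r = 0.32, Spearman rho = 0.21, n = 71), a level that also enters the fold change. The rise varied little with position and family, and no difference between these groups was tested. The 11 of these genes on chromosome 19 had a median of 1.21 and the other 60 one of 1.08, those with a snoRNA inside the gene 1.13 (27 genes) and those without 1.09 (44 genes), and proteins of families shared by all kingdoms 1.09 (30 genes) and the rest 1.12 (41 genes).

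**Figure D3:**
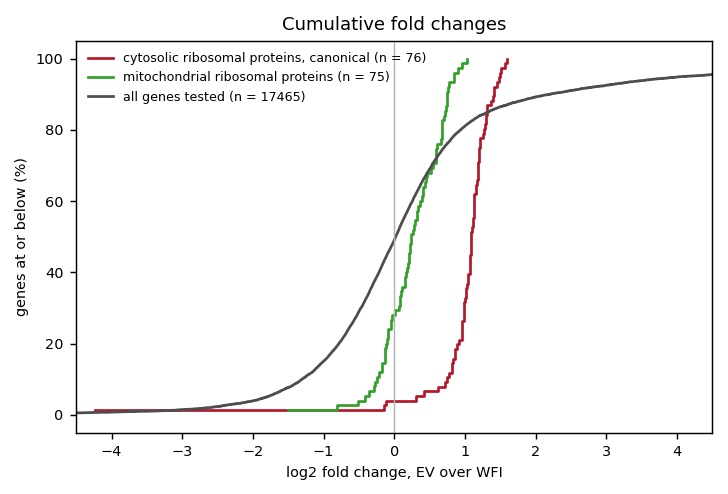
Cumulative share of genes by log2 fold change (EV over WFI), for the 76 tested canonical ribosomal protein genes, the 75 mitochondrial ribosomal protein genes and all 17465 genes tested. At the medians, 1.09 and 0.02, the curve of the cytosolic genes lies to the right of that of all genes. It ends at 1.60, while the values of all genes reach 14.48. The axis leaves out 877 of the genes tested.

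The fold changes of other coding genes went with coding length, and ribosomal protein genes are short. Across 13472 tested coding genes that are not members the log2 fold change correlated with coding length at Spearman rho = -0.25. The shortest of 20 length bins, with a median coding length of 321 bases, stood at 0.49 (median of log2 fold changes), and the longest, with a median of 6327 bases, one of -0.77. A correction took the trend of fold change on coding length out of the EV libraries. The trend was fitted to the EV over WFI fold changes themselves, members included, so the correction is not independent of that contrast. With it, 73 members were still called higher and the median of the 71 genes was 0.78. RPL26 (log2 fold change 0.03, edgeR adjusted p = 0.7991) and RPL39L (0.15, adjusted p = 0.3093) were no longer called.

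**Figure D4:**
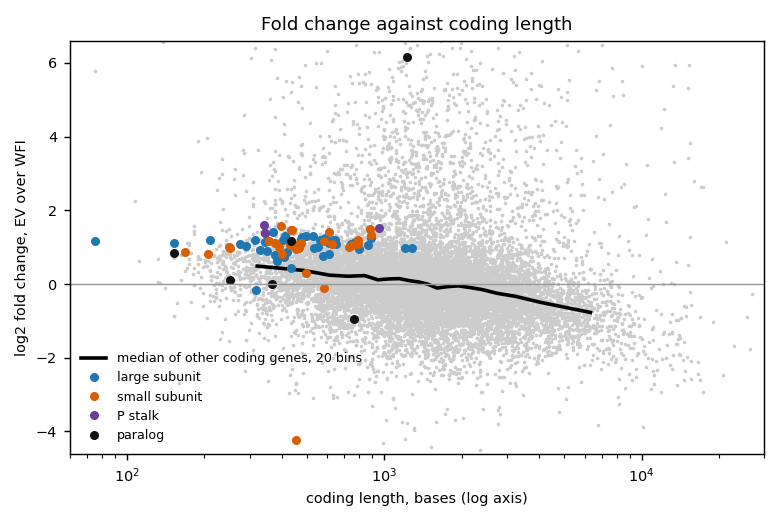
Log2 fold change (EV over WFI) against coding length in bases (log axis) for tested coding genes, with the members marked and the median of 20 length bins as a line. The line runs from 0.49 for the shortest bin to -0.77 for the longest, and most members lie above it.

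The paralogs went different ways. RPL7L1 (ENSG00000146223, chromosome 6, 42879618 to 42889925 on hg38), a relative of RPL7 that works in ribosome biogenesis, had 70.7 and 80.9 CPM in EV against 144 and 148 CPM in WFI. It fell by 0.94 on the log2 scale (SE 0.06, edgeR adjusted p = 2.33e-07), while its partner RPL7 rose by 1.08. RPL22L1, the relative that is raised in mice when Rpl22 is lost, had 24.3 and 22.4 CPM in EV against 24.1 and 22.7 CPM in WFI. These values overlapped, and the log2 fold change did not pass the test (-0.004, SE 0.11, edgeR adjusted p = 0.9773). RPS27L, a relative of RPS27, had 31.0 and 27.9 CPM in EV against 27.8 and 27.0 CPM in WFI, and did not pass either (log2 fold change 0.10, adjusted p = 0.3753). With the correction for coding length, RPL22L1 (-0.45, adjusted p = 0.0036) and RPS27L (-0.44, adjusted p = 0.0025) were called lower, as was RPL36A (-0.63, adjusted p = 0.0139).

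The other 3 paralogs that passed the count filter rose, and RPL10L had no counts. RPL26L1 had 89.9 and 81.9 CPM in EV against 37.8 and 38.0 CPM in WFI, a log2 fold change of 1.18 (SE 0.07, edgeR adjusted p = 8.84e-08). RPL39L, a relative of RPL39 found mainly in testis and in some tumours, had 18.6 and 18.3 CPM in EV against 10.6 and 10.2 CPM in WFI, a rise of 0.83. RPL3L, the muscle paralog of RPL3, had 318 and 274 counts in EV against 1 and 8 in WFI. The ratio of the summed counts was 72.8, with an exact 95% interval of 38.1 to 160.0 that covers counting error only. The fitted log2 fold change was 6.15 (SE 0.39, edgeR adjusted p = 1.37e-07), 5.32 without WFI replicate 1 and 8.14 without WFI replicate 2. RPL3L passed the count filter only through its EV counts, so its p-value adds no separate support for the rise.

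The ratio of each paralog to its partner within a sample does not depend on how the libraries are scaled. The ratios did not overlap between EV and WFI in the 6 pairs with counts. Levels of single genes were often apart too, with EV above WFI in 42.1% and below it in 40.7% of all genes tested. No such share was computed for ratios of 2 genes, so nothing is read from the count of pairs. RPL7L1 was 5.01% and 6.19% of the RPL7 and RPL7L1 counts in EV, against 19.8% and 19.2% in WFI. RPL22L1 was 13.8% and 14.1% of its pair in EV against 21.4% and 18.7% in WFI, and RPS27L 5.95% and 5.52% in EV against 10.2% and 9.69% in WFI. RPL26L1 went the other way, with 57.1% and 54.0% of its pair in EV against 45.8% and 39.6% in WFI. The log2 ratio to the partner, EV minus WFI, was -2.03 for RPL7L1, -0.86 for RPS27L, -0.63 for RPL22L1, -0.29 for RPL39L, 0.75 for RPL26L1 and 5.87 for RPL3L. The value for RPL3L rests on the 1 and 8 counts in WFI: it was 4.39 without WFI replicate 1, 7.35 without WFI replicate 2 and 4.94 with a prior count of 2. These are descriptions of 2 samples a group and carry no p-value.

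**Figure D5:**
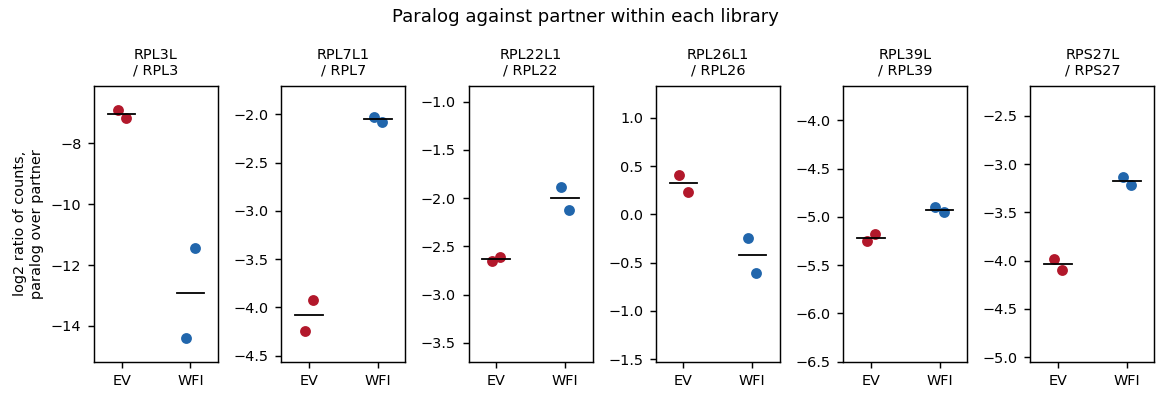
Log2 ratio of the counts of each paralog to its standard partner in each library, with EV at left and WFI at right for each pair. The ratio of RPL7L1 to RPL7 is near -4.08 in EV and -2.05 in WFI, and the groups are apart in each of the 6 pairs.

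Rows with few counts are uncertain. RPS18, whose row has few counts in 3 of the 4 libraries, had 10 and 6 counts in EV against 332 and 4 in WFI. It was called lower (log2 fold change -4.23, SE 1.32, edgeR adjusted p = 0.0153), and WFI replicate 1 decides this: without it the log2 fold change was 1.11 (adjusted p = 0.6598). RPS9 had 43 and 44 counts in EV against 90 and 14 in WFI and did not pass, but without WFI replicate 1 it was 1.75 (adjusted p = 0.0209). RPS10 (29 and 43 counts in EV, 34 and 30 in WFI) and RPL36A (117 and 163 in EV, 176 and 167 in WFI) did not pass. RPL17 had 393 and 434 counts in EV against 187 and 267 in WFI and rose by 1.01. Rows of related pseudogenes held more counts than some of these genes. RPL36AP37 had 2816 and 2566 counts in EV against 1473 and 1561 in WFI. RPS18P5 had 915 and 1141 counts in EV against 527 and 615 in WFI. The single RPS9 pseudogene row had 0 counts in every library. How reads were assigned among genes and their copies is not known, so the low rows may not measure the level of these messengers.

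Of 4 ribosome genes outside the symbol rule 3 rose. FAU, whose product carries RPS30, had 415 and 424 CPM in EV against 174 and 182 CPM in WFI (log2 fold change 1.23). RACK1, a scaffold on the small subunit, rose by 0.90. Near the start of RPL36AL, an L-suffixed relative of RPL36A, a 12-base run of C and T begins at position -9 from the first transcribed base. Most of that run thus lies upstream of the listed start. RPL36AL had 94.99 and 91.5 CPM in EV against 93.2 and 91.3 CPM in WFI and did not pass (0.01, edgeR adjusted p = 0.8215). With the length correction it was called lower.

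Other TOP messengers, a list of translation factors and related genes chosen with earlier results of these data known, mostly rose as well. Of 21 tested, 20 rose and 1 fell, beside 34.5% higher and 31.5% lower among all genes tested. The median was 0.84 on the log2 scale. EIF4A2, a helicase of translation initiation, rose by 2.09, NPM1, a nucleolar chaperone, by 1.85, and HNRNPA1, an RNA-binding protein, by 1.75. EEF1A1, the factor that brings transfer RNA to the ribosome, had 9466 and 9269 CPM in EV against 5829 and 6019 CPM in WFI, a rise of 0.66. EIF4B, an initiation factor, fell by 0.11 (adjusted p = 0.0080), a call that was lost with the length correction, the 50-count filter and upper quartile scaling.

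The genes that build ribosomes went both ways. Of 77 biogenesis factors 37 rose, 23 fell and 17 did not pass (median 0.16), beside 34.5% higher and 31.5% lower among all genes tested. NOP56, a core protein of box C/D snoRNPs, had 952 and 985 CPM in EV against 145 and 142 CPM in WFI, a rise of 2.76. POLR1A, the largest subunit of RNA polymerase I, had 32.7 and 38.0 CPM in EV against 108 and 108 CPM in WFI, a fall of 1.61. Of 16 chaperones and importers of ribosomal proteins 7 rose and 6 fell (median 0.18).

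The regulators of TOP messengers were mixed as well, with 10 of 20 higher and 8 lower. Among all genes tested these shares were 34.5% and 31.5%. LARP1, which binds TOP messengers, had 227 and 221 CPM in EV against 472 and 454 CPM in WFI, a fall of 1.05 (SE 0.04, edgeR adjusted p = 1.00e-09). MTOR fell by 0.64, and MYC, a transcription factor that drives ribosomal genes, had 167 and 170 CPM in EV against 66.2 and 60.1 CPM in WFI, a rise of 1.42. Among genes of ribosome quality control and ribosomal stress 6 of 20 rose and 10 fell. The share that rose (30.0%) was near that of all genes tested. MDM2, a ubiquitin ligase, had 61.4 and 64.5 CPM in EV against 124 and 123 CPM in WFI, a fall of 0.97.

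The genes of the mitochondrial ribosome, a separate machine, had a lower median. Among 75 of them in the test, 34 were called higher (45.3%) and 5 lower, while 36 missed the threshold. Among all genes tested 34.5% were called higher and 31.5% lower. Their median was 0.24 on the log2 scale, beside 1.09 for the cytosolic genes. With the length correction 21 were higher and 21 lower. No test of the difference between the lists was made.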

How the data were processed

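RNA-seq counts per gene for 4 samples were deposited by the authors as whole numbers, with no normalization, in 1 table of the series. Per the submitters' processing notes the build was hg38. Which aligner, counter, strand setting and annotation release were used is not given in the sources used here. Per the labels' protocols the library kit was directional. Depth is given in the text, and precision is limited by the counts of a row. The members and the lists were chosen with earlier results of these data known, and 0 columns of other samples were in the table.

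Counts were tested with edgeR 4.0.16 (R 4.3.3), TMM scaling, filterByExpr, the quasi-likelihood test with group as the only term, and Benjamini-Hochberg adjustment over all 17465 genes tested, at an adjusted p below 0.05. Levels are CPM with TMM factors, and intervals and floors cover counting error only. Coordinates, biotypes and coding lengths came from GENCODE 29, and start windows from RefSeq. Named genes were those members that fell or did not pass, the 10 largest and the 5 smallest rises, the paralogs and partners, the P stalk, RPL5, RPL11, RPS6, RPSA, the 5 highest members, the members at the edge of the filter and the 3 list genes with the smallest adjusted p. Some further genes (MTOR, MDM2, POLR1A, EEF1A1, EIF4B and members cited as examples) were picked with their values in view. Some genes that the rule names are not reported here. The alternatives tried were DESeq2 1.42.0, other scalings, filters, a coding length correction (loess span 0.5), a replicate block and leaving out each sample. On simulated data, over 16070 genes, the procedure recovered 36% of genes changed by 0.5 (log2), 82% at 1 and 100% at 2 and 4. Of its calls 6.02% were false. The simulated data had a fixed spread and far fewer changed genes than this contrast, so these rates do not describe it.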

Additional observations from a re-analysis of the deposited data

How the results depend on the processing

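The 75 members called higher were the same genes with DESeq2, RLE and upper quartile scaling, TMM without the ribosomal protein genes, the 50-count filter, no filter and the replicate block. Leaving out a sample also gave 75, of which 74 were shared without WFI replicate 1 (RPL26 was lost and RPS9 gained), and the length correction gave 73. Members lower numbered 1 with DESeq2 or the 50-count filter, where RPS18 dropped out and RPL7L1 stayed. With a log2 fold change of at least 1 the number was also 1, but RPL7L1 (-0.94) dropped out and RPS18 stayed. Members lower numbered 5 with the length correction, which moved the median of the 71 genes to 0.78. With a minimum log2 fold change of 1, 3063 genes were higher and 2322 lower. At that minimum the counts higher were 6 for other TOP messengers, 1 for chaperones, 15 for biogenesis factors, 5 for regulators, 1 for quality control and 1 for mitochondrial genes, and the counts lower 0, 0, 7, 2, 3 and 1. With the length correction the counts were 21 higher and 21 lower for mitochondrial genes, 3 lower for chaperones, 1 lower for partner genes (RPL36AL) and 0 lower for other TOP messengers (EIF4B lost its call), as also with the 50-count filter and upper quartile scaling. Mitochondrial genes lower numbered 8 with no filter and 3 to 5 when a sample was left out. The median of all genes was 0.30 with DESeq2 and 0.24 with no filter, settings that also took in more low-count genes. The cause of the shifts listed here was not tested.

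Of 429 values for 36 named members, 409 kept direction and call, 6 lost the call, 2 gained it and 12 turned. RPL22L1, at -0.0039 in the fit used, was 0.0437 with the 50-count filter, 0.0154 with RLE, 0.0025 with TMM without the ribosomal protein genes and 0.0522 with upper quartile scaling. With the length correction RPS10 was -0.0399 and RPS27L -0.44. When a sample was left out, RPL22L1 ran from -0.0804 to 0.0409, RPL36A from -0.37 to 0.0189, RPS18 from -5.25 to 1.11 and RPS9 from -0.94 to 1.75. With a replicate block, members higher stayed at 75 and lower at 2, and RPS9 was 0.23 (adjusted p = 0.6383). The deviations of same-numbered samples from their group means were nearly uncorrelated (r = 0.02 over 17465 genes). With so few replicates this cannot show whether same-numbered samples were handled together. The rows of RPS9, RPS10, RPS18 and RPL36A held few counts in libraries of this depth, and the cause was not tested. Their values, and those of RPL3L in WFI, are uncertain.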

Other observations

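Ribosomal protein pseudogenes, copies whose rows may take reads from their parents, mostly rose like the members. Of 1599 such rows 134 passed the filter, with a median log2 difference of 0.93. In EV 79 of them (59.0%) were called higher and 10 lower, and 45 did not pass the test. Among all genes tested 34.5% were called higher and 31.5% lower. They took 0.338% and 0.328% of all counts in EV, against 0.171% and 0.176% in WFI. As a share of member counts they were 4.77% and 4.82% in EV, against 4.91% and 4.89% in WFI. The highest was RPS2P5, with 634 and 687 CPM in EV against 237 and 233 CPM in WFI (log2 fold change 1.49), beside 1.497 for RPS2. RPLP0P6 rose by 1.52 and RPLP0 by 1.51.

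The read-through rows that join a member to a neighbouring gene held few counts. RPS10-NUDT3 and RPL36A-HNRNPH2 had 0 counts in every library, and RPL17-C18orf32 had 13 and 1 counts in EV against 2 and 1 in WFI.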
